A study of Solanum pimpinellifolium with 60 samples.

Results

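Floral buds of 6 days post floral initiation (dpi) were set against floral buds of 4 dpi in Solanum pimpinellifolium LA1589, the wild relative of tomato that served as the wild type. The comparison took every library of these stages, 12 of 6 dpi and 12 of 4 dpi, which is 24 of the 60 libraries of the series. Each stage held 3 replicates of 4 genotypes. These were the lc near-isogenic line (NIL), which carries 2 SNPs downstream of SlWUS, the fas NIL, which carries an inversion that breaks the promoter of SlCLV3, the lc/fas double NIL, and the wild type (WT). The NILs were made by backcrossing to LA1589, so each also carries a donor segment around its mutation. All plants were 5 to 7 weeks old, and a pool of about 300 first and second inflorescences was collected per genotype. Buds were dissected from these in RNAlater with forceps, so a library is a pool of whole buds and not of 1 organ. The other 3 stages were sympodial shoot meristems (SYM), floral meristems with the inflorescence meristem (F&IM), and buds of 2 dpi. The 2 dpi buds enter 1 test below, and the others are used for levels only.

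A floral meristem forms its organs in whorls, from the sepals outside to the carpels in the centre. In Arabidopsis, A, B, C and E class MADS-box proteins give each whorl its identity. WUS holds the stem cells in the centre, CLV3 restricts WUS, and AG, the C class gene, ends stem cell activity when the carpels arise. Buds of 4 dpi have begun to form petal primordia, and the later buds go on to stamens and carpels. The question of the comparison was which genes change in the bud over these days, and whether they change alike in the 4 genotypes.

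Libraries were 3′ tag RNA-seq, in which a transcript gives 1 tag near its 3′ end, and levels are given as reads per 1000000 counts of a library (RPM). Library totals, in units of 1000000 counts, ran from 0.441 to 9.17 at 6 dpi and from 2.67 to 7.32 at 4 dpi. The lowest was the fas 6 dpi replicate 3, with 441291 counts and 18043 genes detected, against 21614 to 24770 genes in the other 6 dpi libraries and 21897 to 24311 in those of 4 dpi. A gene with 1 count in that library stands at 2.27 RPM, so the highest 6 dpi value of a weak gene often came from it. Replicates of 6 dpi also varied more. The median gene had a within-group SD of 0.237 to 0.387 at 6 dpi and of 0.204 to 0.219 at 4 dpi, on the log2 scale. The stages separated fully on the second principal component, from 6.52 to 27.2 at 6 dpi and from -22.6 to -11.2 at 4 dpi. The first component did not separate the stages, and replicate 2 was the lowest of the 3 replicates on it in 7 of the 8 groups. With genotype and stage removed, the first component of what remained held 41.3% of the variance. By construction its mean was the same at both stages, so taking it as a covariate mainly lowers the spread that remains. More calls with it as a covariate are therefore no independent check on a change between the stages. For lists of genes that moved with it, the median correlation with it over the 24 libraries is given below, against 0.05 over all tested genes.

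**Figure D1:**
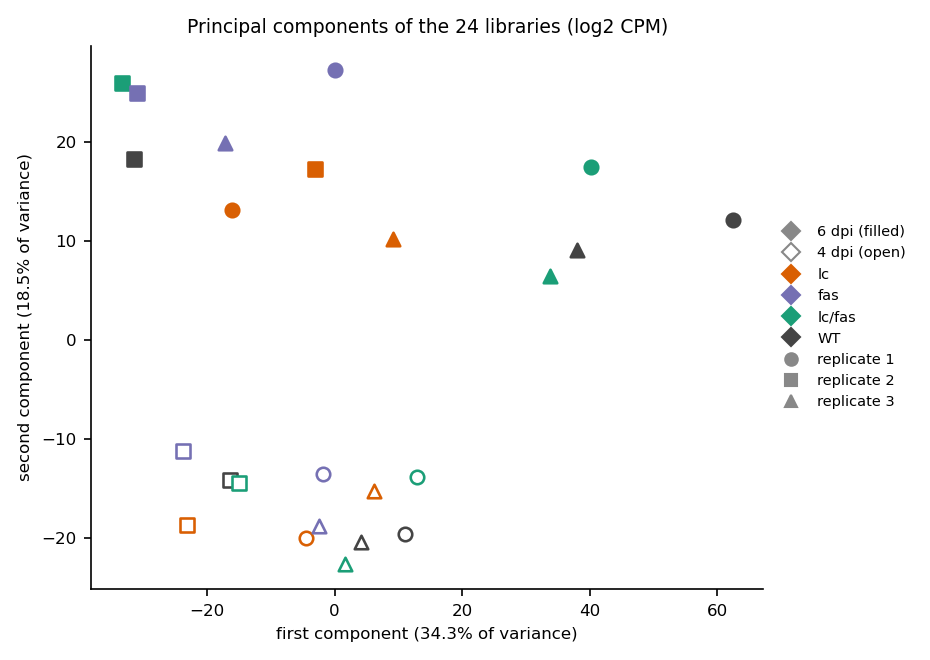
First and second principal components of the 24 libraries (genes with a mean log2 CPM over 3), 1 symbol per library, filled for 6 dpi and open for 4 dpi, coloured by genotype and shaped by replicate number. The first axis holds 34.3% and the second 18.5% of the variance. All 12 libraries of 6 dpi lie at 6.52 or above on the second axis and all 12 of 4 dpi at -11.2 or below.

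Of 18336 genes tested with genotype as a covariate, 2674 differed at an adjusted p under 0.05 in edgeR's quasi-likelihood test, which is 14.6% of the tested genes. Of these, 1713 (9.34%) were higher at 6 dpi and 961 (5.24%) were lower at 6 dpi. The change was at least 2-fold for 559 genes (3.05%), of which 467 (2.55%) were higher at 6 dpi and 92 (0.502%) were lower. Without the fas 6 dpi replicate 3, 2581 of the 2674 genes and 558 of the 559 were called again. With the libraries of a genotype that share a number taken as a block, 4027 genes (22%) were called, 2282 (12.4%) higher and 1745 (9.52%) lower, and 2662 of the 2674 were among them. The 12 libraries of each stage did not overlap in RPM for 209 genes (1.14%), 140 higher and 69 lower at 6 dpi. The median log2 fold change over all tested genes was -0.00.

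The largest rise was that of a homolog of Arabidopsis CRC, and a further CRC homolog was among the 10 largest. Gene names are given only where the study names a tomato gene or pairs it with an Arabidopsis gene. It pairs 3759 of the tested genes, and 19.5% of these were called. The study took them from genes it had listed on these same libraries, so that share is not independent. Of the 3759, 433 were higher and 301 lower at 6 dpi, and the lists below draw mainly on these genes. CRC is a YABBY transcription factor of the carpel and nectary. The CRC homolog Solyc05g012050 had 10.4, 31.9 and 68.7 RPM (lowest, median, highest) at 6 dpi, against 0, 0.174 and 0.41 RPM at 4 dpi. All 12 libraries of 6 dpi lay far above all 12 of 4 dpi, where the gene had 10 counts in total. Its log2 fold change was 7.37 ± 0.34 (SE; adjusted p = 9.7e-14). At the earlier stages its median stayed at 0.332 RPM in the SYM, 0.169 in the F&IM and 0.270 at 2 dpi, so its level left the floor only in the last interval sampled. The other CRC homolog, Solyc01g010240, had 19.2, 27.8 and 52.6 RPM at 6 dpi, against 0, 2.81 and 6.48 RPM at 4 dpi, a log2 fold change of 3.49 ± 0.28 (adjusted p = 2.11e-09). Its libraries did not overlap either, but it was detected in the SYM, with a median of 6.35 RPM.

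The other annotated genes with large rises were of different kinds. The homolog of the metallothionein MT2B, a small metal-binding protein, had 31.3 to 67.2 RPM at 6 dpi, against 2.07 to 8.10 RPM at 4 dpi (Solyc04g058150; log2 fold change 3.32 ± 0.16; adjusted p = 2.9e-14). No library of 4 dpi reached the lowest of 6 dpi. The homolog of a basic chitinase, Solyc02g082930, had 9.26, 18.0 and 31.1 RPM at 6 dpi, against 1.30, 3.93 and 5.17 RPM at 4 dpi, a log2 fold change of 2.55 ± 0.21 (adjusted p = 9.89e-10). The homologs of a glucosyltransferase (Solyc08g077080), a pectin methylesterase (Solyc02g080220), a fatty acyl reductase (Solyc06g074410) and a strictosidine synthase-like protein (Solyc03g114560) rose by 2.36, 2.33, 2.18 and 2.15 on the log2 scale, each with no overlap between the stages. The list of cell wall genes had 1 of 9 called, a rise, with a median log2 fold change of -0.08. Of the 10 largest rises, 7 were of genes that have no annotation here. The largest of these were Solyc03g097590, with a median of 44.0 RPM at 6 dpi and 3.06 RPM at 4 dpi, Solyc04g082710, with 10.3 and 0.514 RPM, and Solyc05g051750, with 460 and 55.0 RPM, in the same order of stages.

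The largest fall was that of the ERF-family homolog Solyc03g117230. It had 0.423, 1.47 and 9.06 RPM at 6 dpi, against 14.5, 27.6 and 40.2 RPM at 4 dpi, a log2 fold change of -4.05 ± 0.25 (adjusted p = 1.32e-11). The stages did not overlap. The value of 9.06 RPM is that of 4 counts in the fas 6 dpi replicate 3, and the change without that library was -4.12. Its median had been 56.5 RPM in the SYM, 105 in the F&IM and 88.7 at 2 dpi, so most of the fall came after 2 dpi.

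The other annotated genes with large falls were also of different kinds. The homolog of AIL6, an AP2-type factor of organ growth and positioning, had 2.48, 3.36 and 6.80 RPM at 6 dpi, against 16.5, 20.7 and 29.9 RPM at 4 dpi (Solyc05g051380; log2 fold change -2.56 ± 0.12; adjusted p = 2.53e-14). No library of 6 dpi came near those of 4 dpi. The homolog of EPFL1, a secreted peptide, fell by 1.84 (Solyc03g121790), that of TGA9, a bZIP factor of anther development, by 1.76 (Solyc06g074320), and that of PNF, a BELL homeodomain partner of STM, by 1.60 on the log2 scale (Solyc11g069890). None of these overlapped between the stages. The homolog of MIOX4, an inositol oxygenase, fell by 2.80 (Solyc12g008650), with 0 to 2.29 RPM at 6 dpi and 1.50 to 19.6 RPM at 4 dpi, so its ranges overlapped slightly. Solyc00g006470 and Solyc08g036520, without annotation here, had log2 fold changes of -2.91 and -1.79, but with 4 dpi levels that ran from 3.92 to 139 RPM and from 7.84 to 96.8 RPM.

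**Figure D2:**
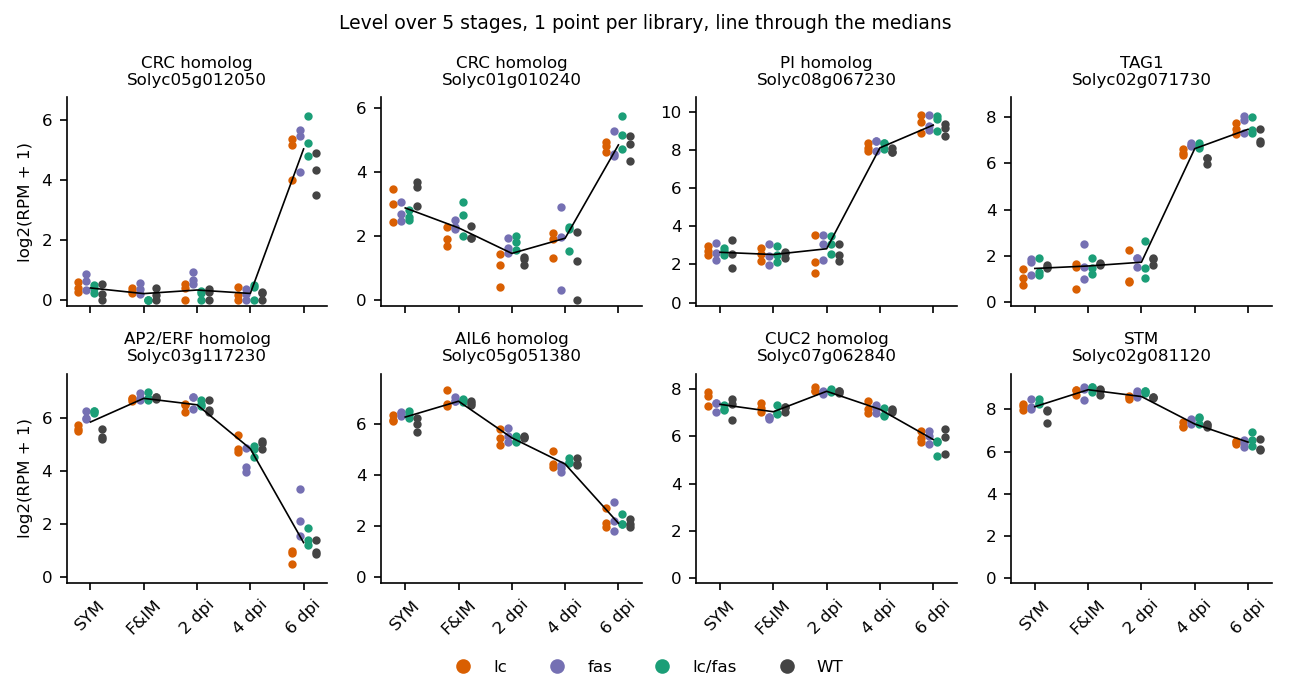
Level as log2(RPM + 1) of 8 genes over the 5 stages SYM, F&IM, 2, 4 and 6 dpi, 1 point per library coloured by genotype, with a line through the medians of 12 libraries. The CRC homologs are highest at 6 dpi (median 31.9 and 27.8 RPM), the PI homolog has medians of 6.19, 278 and 638 RPM and TAG1 of 2.30, 98.6 and 177 RPM at 2, 4 and 6 dpi, and the AP2/ERF, AIL6, CUC2 and STM homologs are lowest at 6 dpi.

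The genes of floral organ identity split by class. All 24 libraries held genes of floral organ identity. The 15 listed genes, of all classes together, summed to 4838 to 6874 RPM at 6 dpi and 4178 to 5347 RPM at 4 dpi. Of the 14 tested, 5 rose and 3 fell, with a median log2 fold change of 0.03. The 5 that rose were all 4 B class homologs, which specify petals and stamens, and the C class gene TAG1, which specifies stamens and carpels. The PI homolog Solyc08g067230 had 432, 638 and 917 RPM at 6 dpi, against 238, 278 and 360 RPM at 4 dpi, without overlap (log2 fold change 1.21 ± 0.11; adjusted p = 4.75e-09). TAG1 (Solyc02g071730) had 116, 177 and 267 RPM at 6 dpi, against 62.4, 98.6 and 117 RPM at 4 dpi, with a change of 0.99 ± 0.09 (adjusted p = 8.79e-09). TAG1 was higher at 6 dpi in 12 of the 12 pairs of 1 genotype and replicate number, and its ranges met only at the edge. The other PI homolog (Solyc06g059970) and the AP3 homologs Solyc04g081000 and Solyc02g084630 rose by 0.53, 0.61 and 0.62 on the log2 scale.

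None of the 9 E class and AP1-clade genes rose. TM5, the SEP3 homolog (Solyc05g015750), had a median of 550 RPM at 6 dpi and 556 RPM at 4 dpi, a log2 fold change of 0.04 ± 0.07 (adjusted p = 0.776). The SEP4 homolog Solyc12g038510 fell by 0.44 with no overlap between the stages, at 92.9, 112 and 139 RPM at 6 dpi and 143, 157 and 182 RPM at 4 dpi. A SEP2 homolog (Solyc04g005320) fell by 0.37, and the other members of this class had changes of -0.03 and 0.03. In Arabidopsis AP1 acts in floral meristem identity and in the outer whorls. The AP1 homolog Solyc05g056620 fell by 0.50 (adjusted p = 0.00032), and its paralog Solyc02g089210 had a change of -0.27 (adjusted p = 0.108, or 0.0166 with the pairs as a block). The members of these MADS-box families are related in sequence, and how the counting treated reads that fit several genes is not given in the sources used here.

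Genes of the floral meristem fell. Of 16 tested, 11 were lower at 6 dpi and 0 were higher, with a median log2 fold change of -0.49. All 5 of the stem cell genes fell, with a median of -0.996. In bulk buds, fewer cells of a type and less RNA per cell cannot be told apart. SlWUS (Solyc02g083950), the homeodomain factor of the organizing centre, had 1.21, 3.88 and 4.92 RPM at 6 dpi, against 3.53, 6.04 and 10.1 RPM at 4 dpi (log2 fold change -0.996 ± 0.168; adjusted p = 8.72e-05). SlCLV3 (Solyc11g071380), which encodes the peptide that limits SlWUS, had 0.853, 1.76 and 4.53 RPM at 6 dpi, against 1.70, 4.87 and 8.51 RPM at 4 dpi (change -1.33 ± 0.22; adjusted p = 4.84e-05). Both ranges overlapped between the stages, and the genotypes differed in level, but SlWUS was lower at 6 dpi in 12 of 12 pairs and SlCLV3 in 10 of 12.

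SlCLE9 (Solyc06g074060), a CLV3-related peptide gene, had 0, 0.258 and 1.88 RPM at 6 dpi, against 0.415, 2.33 and 6.83 RPM at 4 dpi. It was lower at 6 dpi in 12 of 12 pairs (log2 fold change -2.45 ± 0.31; adjusted p = 1.47e-06), and its 4 dpi level was under 1 RPM in the WT and highest in lc/fas. It rests on 29 counts in total at 6 dpi and 162 at 4 dpi. STM (Solyc02g081120), the KNOX factor that keeps meristem cells undetermined, was the best measured of the group. It had 67.3, 86.2 and 119 RPM at 6 dpi, against 143, 157 and 195 RPM at 4 dpi, with no overlap (change -0.92 ± 0.08; adjusted p = 1.39e-09). The KNAT6 homolog (Solyc05g005090) of the same family fell by 0.65.

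Of the genes of floral meristem identity and flowering, 3 of 5 fell. The homolog of UFO, an F-box protein that helps activate the B class genes, had 32.3, 49.1 and 81.7 RPM at 6 dpi, against 69.5, 82.6 and 93.2 RPM at 4 dpi (Solyc02g081670; log2 fold change -0.77 ± 0.11; adjusted p = 5.64e-06). The homologs of SPL15 (Solyc10g078700) and SOC1, named AGL20 (Solyc01g092950), both flowering regulators, fell by 0.76 and 0.42. Among growth genes the AN3 homolog (Solyc11g006230), a coactivator of cell proliferation, fell by 0.56. ANT (Solyc04g077490), an AP2-type factor of organ growth, had 283, 328 and 473 RPM at 6 dpi and 289, 352 and 417 RPM at 4 dpi. Its change of 0.00 ± 0.08 (adjusted p = 0.987) stands beside the fall of its relative, the AIL6 homolog.

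Boundary genes, which separate organs and prevent their fusion, fell in 6 of 10 cases and rose in 0, with a median log2 fold change of -0.38. The CUC2 homolog, a NAC factor, had 35.0, 57.5 and 77.7 RPM at 6 dpi, against 114, 141 and 180 RPM at 4 dpi (Solyc07g062840; change -1.28 ± 0.11; adjusted p = 9.05e-10). All libraries of 6 dpi lay below all of 4 dpi. The homologs of the GRAS factor LAS (Solyc07g066250), of LSH3 (Solyc06g083860) and of the MYB factor MYB36 (Solyc11g069030) fell by 0.78, 0.74 and 0.72, and 2 of 3 BOP2 homologs fell by 0.45 (Solyc10g079750) and 0.32 (Solyc10g079460). The other LSH3 homolog (Solyc09g025280) and both LSH6 homologs did not pass the test.

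Of 14 polarity genes tested, 1 rose and 3 fell, with a median log2 fold change of -0.05. With the pairs as a block 4 fell, with the REV homolog Solyc11g069470 added (change -0.26; adjusted p = 0.0847, or 0.019 with the block). In Arabidopsis HD-ZIPIII factors specify the upper side of organs and YABBY and KANADI factors the lower side. The HD-ZIPIII homolog Solyc08g066500 (ATHB15) had 10.2, 15.6 and 18.1 RPM at 6 dpi, against 6.74, 7.83 and 13.3 RPM at 4 dpi (change 0.78 ± 0.12; adjusted p = 2.6e-05), and was higher in 12 of 12 pairs. The PHB homolog Solyc02g069830 and the REV homolog Solyc12g020120 fell by 0.51 and 0.50. Of 7 genes of the lower side, the FIL homolog Solyc01g091010 alone passed the test, with a change of -0.32. SlYABBY2b (Solyc11g071810) had 4.36, 28.4 and 59.5 RPM at 6 dpi and 3.96, 24.7 and 62.5 RPM at 4 dpi, a change of 0.15 ± 0.14 (adjusted p = 0.531). The wide range is that of the genotypes within each stage. Over both stages the fas and lc/fas libraries had 3.96 to 15.4 RPM and those of the WT and lc 36.5 to 62.5 RPM, so the medians lie between these groups. The study reports that the fas inversion also breaks the first intron of this gene and leaves truncated transcripts.

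The 4 tested genes of carpel and ovule all changed, in both directions. Beside the 2 CRC homologs, the homologs of STY1, a zinc finger factor that in Arabidopsis acts at the top of the gynoecium and on auxin synthesis, were lower at 6 dpi. Solyc04g080970 had 8.42, 14.4 and 21.0 RPM at 6 dpi, against 26.5, 29.9 and 34.0 RPM at 4 dpi, without overlap (log2 fold change -1.07 ± 0.11; adjusted p = 6.41e-08). Solyc02g084680 fell by 0.48. Few markers of the stages that follow could be looked at. For 24 listed loci of anther and pollen and 9 of meiosis, the study's pairs reached 1 and 2 genes. The homolog of EMS1, a receptor kinase of the anther wall, had 29.4, 41.3 and 78.9 RPM at 6 dpi and 42.3, 64.2 and 76.4 RPM at 4 dpi (Solyc03g026040; change -0.33 ± 0.16; adjusted p = 0.176, or 0.0216 with the block). Neither of 2 meiosis genes passed the test, at medians of 3.12 and 2.16 RPM at 6 dpi and 3.67 and 1.46 RPM at 4 dpi.

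**Figure D3:**
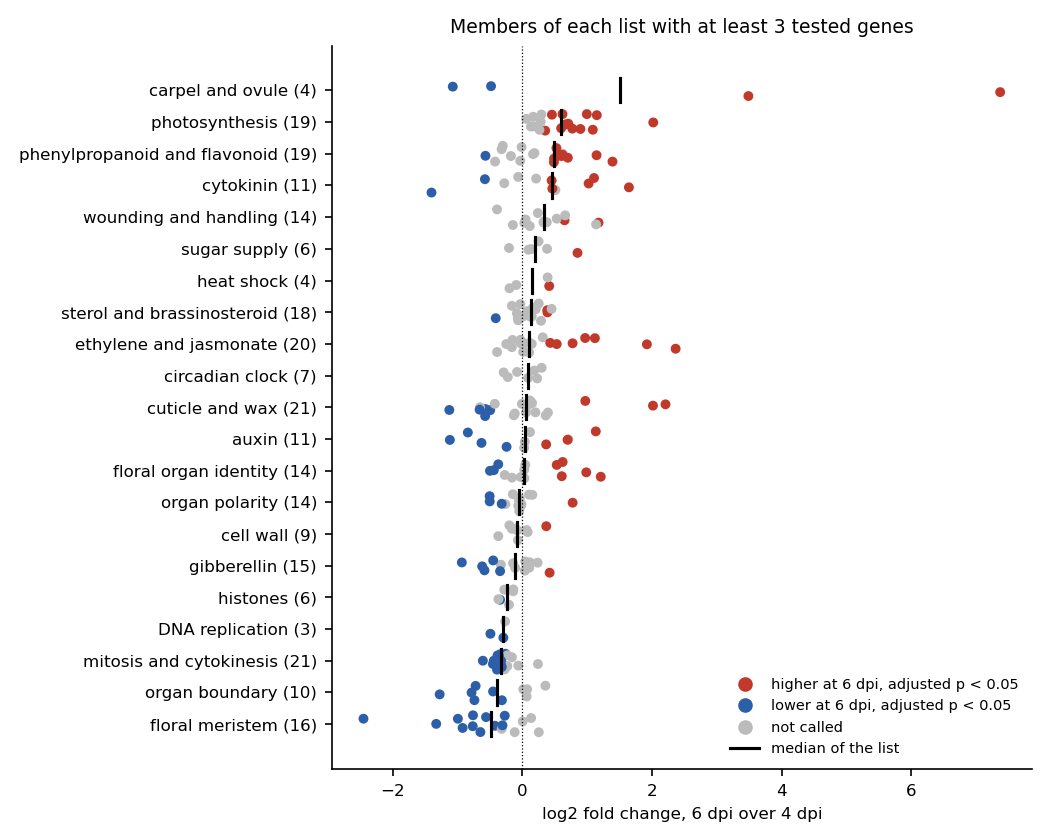
Log2 fold change, 6 dpi over 4 dpi, of every tested member of the lists with at least 3 tested genes, 1 point per gene, with the number tested in brackets and a black bar at the median of the list. Red points were higher and blue points lower at 6 dpi at an adjusted p under 0.05, and grey points were not called. Floral meristem (median -0.49) and organ boundary (-0.38) have the lowest medians of the lists with at least 10 tested genes and photosynthesis (0.60) the highest. The 4 carpel and ovule genes lie on both sides of 0, with 2 higher and 2 lower.

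Cell division genes were lower at 6 dpi by small amounts. Of 21 genes of mitosis and cytokinesis, 14 fell and 0 rose, with a median log2 fold change of -0.33 and none at 2-fold. With the pairs as a block 16 fell. The list moved with the first component of the residuals, at a median correlation of -0.60, and 19 of the 21 fell with that component as a covariate. Their summed level was 848, 1416 and 1887 RPM at 6 dpi and 1627, 1705 and 2108 RPM at 4 dpi, so the stages overlapped. The homolog of HINKEL, a cytokinesis kinesin, had 24.8, 27.8 and 50.8 RPM at 6 dpi, against 42.3, 48.9 and 67.5 RPM at 4 dpi (Solyc03g119220; change -0.61 ± 0.11; adjusted p = 0.000207). Of the genes that carry a name in the study, TES (Solyc07g042560), MAP65-1a (Solyc11g072280), ATK1 (Solyc12g005250), CSLD5 (Solyc09g075550) and CYCB2;3 (Solyc03g032190) fell by 0.39, 0.36, 0.41, 0.33 and 0.26. PAKRP1 (Solyc09g097860) and ZWI (Solyc12g082730) had changes of -0.23 and 0.24 and did not pass the test. The call of CYCB2;3 was lost without any 1 of 8 libraries, with adjusted p up to 0.0682. At 6 dpi these were the lc replicate 3, the lc/fas replicate 2 and the WT replicate 1, and at 4 dpi the lc replicate 1 and the replicates 1 and 3 of lc/fas and the WT.

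DNA replication genes pointed the same way. The homolog of MCM7, a subunit of the replicative helicase, had 71.5, 104 and 130 RPM at 6 dpi, against 123, 141 and 169 RPM at 4 dpi (Solyc01g079500; log2 fold change -0.49 ± 0.09; adjusted p = 0.000155). The RNR1 homolog (Solyc04g051350) fell by 0.29, a call that was lost without any 1 of 7 libraries (adjusted p up to 0.0610). At 6 dpi these were the fas replicate 2, the lc/fas replicate 1 and the WT replicates 1 and 3, and at 4 dpi the replicate 3 of fas, lc/fas and the WT. The CDT1 homolog (Solyc06g008510) had a change of -0.27 (adjusted p = 0.0756, or 0.0182 with the block and 0.0351 without the fas 6 dpi replicate 3). Of 6 histone genes 1 fell, or 4 with the pairs as a block, with a median change of -0.24. The histone genes correlated with the residual component at a median of 0.80, and 5 fell with it as a covariate. That 1 call, of Solyc06g005390, was lost without the WT 4 dpi replicate 1 (adjusted p = 0.0536).

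Photosynthesis genes were higher at 6 dpi. For 62 listed loci, the study's pairs reached 19 genes, so much of the list was not seen. Of these 19, all tested, 12 rose and 0 fell, with a median log2 fold change of 0.60, and 14 rose with the pairs as a block. The list also moved with the residual component, at a median correlation of 0.77, or 0.82 for the genes of light harvesting and for those of the photosystems. With that component as a covariate 14 rose and 0 fell. The homolog of RCA, the activase of Rubisco, had 6.80, 15.7 and 24.3 RPM at 6 dpi, against 0.868, 3.99 and 6.22 RPM at 4 dpi (Solyc09g011080; change 2.02 ± 0.20; adjusted p = 2.59e-08). The homologs of the plastid aldolase FBA2 (Solyc01g110360) and of PORB, a chlorophyll synthesis enzyme (Solyc10g006900), rose by 1.15 and 1.09. None of these overlapped between the stages. Of 8 light-harvesting genes 7 rose, by 0.46 to 0.99. Of 5 photosystem genes 1 rose, or 3 with the block. The summed level of the 19 genes was 3243, 4186 and 5523 RPM at 6 dpi and 2553, 3093 and 3694 RPM at 4 dpi, and the stages overlapped.

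Flavonoid genes rose as well. Of 9 tested, 7 rose and 0 fell, or 8 and 0 with the block, with a median log2 fold change of 0.53. Their median correlation with the residual component was -0.67, and 8 rose and 1 fell with it as a covariate. The 9 included the homologs of CHS, which makes the first flavonoid skeleton (Solyc09g091510, 0.60), CHIL (Solyc05g052240, 0.49) and F3H (Solyc02g083860, 0.53). They also included the homolog of FLS1, the flavonol synthase (Solyc11g013110, 0.49), and the MYB12 homolog that in Arabidopsis activates this branch (Solyc01g079620, 0.62). The lowest change among the 9 was -0.42, which did not pass the test. The largest change among the 9 was that of the F3′H homolog Solyc04g011690, which hydroxylates the B ring. It had 12.7, 32.5 and 54.2 RPM at 6 dpi, against 9.02, 12.6 and 18.8 RPM at 4 dpi (change 1.39 ± 0.14; adjusted p = 2.19e-08), and was higher in 12 of 12 pairs. Of 10 genes of general phenylpropanoid metabolism 2 rose and 1 fell, the HCT homolog Solyc11g071470 (change -0.57), or 2 and 3 with the block.

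Cuticle genes moved in both directions. Of 21 tested, 3 rose and 5 fell, or 4 and 5 with the block, with a median of 0.06. The homologs of the wax enzymes CER1 (Solyc01g088430) and CER3 (Solyc03g117800) and of the elongase KCS2 (Solyc09g065800) rose by 2.21, 0.97 and 2.01 on the log2 scale. The KCS2 homolog had 4.53, 11.2 and 19.8 RPM at 6 dpi and 0.830, 2.56 and 5.19 RPM at 4 dpi. Its median was 0 RPM in the SYM, in the F&IM and at 2 dpi, so it was detected steadily only from 4 dpi on. The 5 that fell were the homologs of the epidermal MYB factors MYB16 (Solyc05g007690, change -1.13) and MYB106 (Solyc05g007710, -0.66), of the transporter ABCG11 (Solyc01g105450, -0.57), of CUT1 (Solyc05g009270, -0.57) and of CER4 (Solyc06g074390, -0.50). Of 15 sterol enzymes 2 were called, or 5 with the block, and their median correlation with the residual component was 0.68. The 2 were DWARF1 (Solyc02g069490) and its paralog Solyc02g030170, which rose by 0.38 and 0.39. DWARF5 (Solyc06g074090), DWARF7 (Solyc02g086180) and DET2 (Solyc10g086500) had changes of 0.07, 0.21 and -0.07 and did not pass the test, of which DWARF7 rose with the block (adjusted p = 0.0277).

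For 25 listed auxin loci, the study's pairs reached 11 genes, so much of the list was not seen. All 3 tested genes of auxin synthesis and transport were lower at 6 dpi. SlSoPIN1a (Solyc10g078370), a PIN auxin exporter, had 107, 123 and 155 RPM at 6 dpi, against 172, 205 and 230 RPM at 4 dpi (log2 fold change -0.63 ± 0.07; adjusted p = 3.45e-07), without overlap. The homolog of the importer AUX1 had a median of 6.79 RPM at 6 dpi, against 15.0 RPM at 4 dpi (Solyc10g076790; change -1.12 ± 0.12; adjusted p = 8.45e-08), also without overlap. The homolog of YUC4, an enzyme of auxin synthesis, fell by 0.84 (Solyc06g065630). Of 8 auxin response genes 3 rose and 1 fell.

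Cytokinin genes rose in 5 of 11 cases and fell in 2, or 6 and 3 with the block, with a median of 0.45. LOG enzymes release active cytokinin, and their homologs split by member. Both LOG3 homologs rose, Solyc10g084150 with 26.1, 42.9 and 57.0 RPM at 6 dpi against 17.0, 19.1 and 27.2 RPM at 4 dpi (log2 fold change 1.11 ± 0.10; adjusted p = 4.14e-09), and Solyc09g007830 by 1.02. Both LOG7 homologs fell, Solyc01g007270 by 1.40 and Solyc10g082020 by 0.58. The homolog of CKX3, which breaks cytokinin down, rose by 1.64 (Solyc12g008900), at a low median of 4.04 RPM at 6 dpi and 1.58 RPM at 4 dpi. Gibberellin genes fell in 5 of 15 cases and rose in 1. The 5 included both a GA20ox1 homolog of the synthesis branch (Solyc06g035530, change -0.59) and 2 GA2ox2 homologs of the breakdown branch (Solyc07g061720, -0.94, and Solyc07g061730, -0.62).

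Ethylene and jasmonate genes rose in 7 of 20 cases and fell in 0, or 7 and 1 with the block. ACO enzymes make ethylene. The ACO4 homolog Solyc02g036350 had 197, 268 and 390 RPM at 6 dpi, against 54.8, 70.4 and 102 RPM at 4 dpi (log2 fold change 1.92 ± 0.11; adjusted p = 9.22e-13), and Solyc02g081190 rose by 0.97. The homolog of AOS, an enzyme of jasmonate synthesis, had 35.5, 47.3 and 60.3 RPM at 6 dpi and 23.7, 27.8 and 34.4 RPM at 4 dpi (Solyc11g069800; change 0.77 ± 0.10; adjusted p = 1.33e-06). None of these 3 overlapped between the stages. LOX homologs of the lipid oxidation step rose by 1.12 (Solyc12g011040) and 2.36 (Solyc01g099150). The JAZ homologs, which repress the jasmonate response, did not pass the test, with changes of -0.39 to 0.01. The lowest, the JAZ8 homolog Solyc08g036660, fell with the block (adjusted p = 0.0885, or 0.0126 with the block).

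Of 14 genes of wounding and handling, 2 rose and 0 fell, or 4 and 1 with the block, and their summed level of 9700, 13710 and 22794 RPM at 6 dpi overlapped that of 10468, 13310 and 18881 RPM at 4 dpi. The 2 were homologs of 1 proteinase inhibitor with neighbouring identifiers (Solyc09g089510, 1.17, and Solyc09g089530, 0.65), which may share reads. The call of the second was lost without the lc 6 dpi replicate 3, the WT 6 dpi replicate 3 or the lc/fas 4 dpi replicate 2 (adjusted p up to 0.0619). Of 7 circadian clock genes 0 passed the edgeR test, 1 rose and 1 fell with the block, and tissue was collected at 1 time of day. Of 4 heat shock genes 1 rose and 0 fell, or 2 and 1 with the block, and the call of the one that rose was lost without the lc/fas 6 dpi replicate 1 (Solyc03g082420; adjusted p = 0.05003). Without the fas 6 dpi replicate 3, the counts of every list above were the same, except that 3 DNA replication genes, 13 mitosis genes, 3 cytokinin genes and 2 phenylpropanoid genes were lower at 6 dpi.

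**Figure D4:**
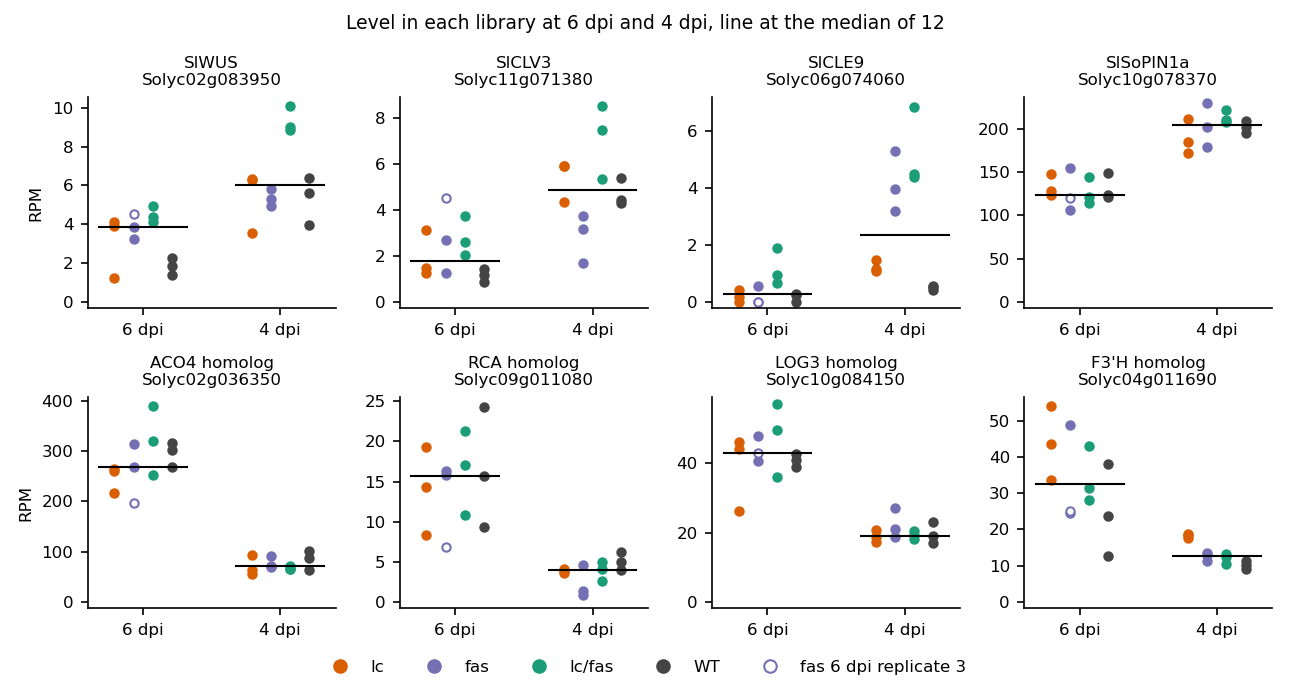
RPM of 8 genes in each library, 6 dpi on the left and 4 dpi on the right of each panel, 1 point per library coloured by genotype, an open point for the fas 6 dpi replicate 3, and a line at the median of 12 libraries. SlSoPIN1a and the ACO4 and RCA homologs do not overlap between the stages. SlWUS, SlCLV3 and SlCLE9 overlap, with genotypes at different levels within 4 dpi.

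The step from 4 to 6 dpi was then set against the step before it, from 2 to 4 dpi, in the 36 libraries of these 3 stages. The 4 dpi libraries enter both steps with opposite sign, so a high or low 4 dpi value moves the difference. Of 18568 genes tested, the steps differed for 1919 (10.3%). The later step was the more positive for 703 genes (3.79%) and the more negative for 1216 (6.55%). With the same kind of block, the first count was 1128. On the log2 scale, TAG1 and 3 of the 4 B class homologs rose more before 4 dpi than after it, and the AP3 homolog Solyc02g084630, with a median of 164 RPM already at 2 dpi, did not differ between the steps at the threshold. The PI homolog Solyc06g059970 had medians of 6.98, 712 and 994 RPM at 2, 4 and 6 dpi, a later step smaller by 6.10 ± 0.18 on the log2 scale (adjusted p = 6.38e-27), and the AP3 homolog Solyc04g081000 had 16.3, 1112 and 1658 RPM. TAG1 followed at 2.30, 98.6 and 177 RPM, with a difference of -4.34 ± 0.23 (adjusted p = 3.23e-17). In RPM the PI homolog Solyc08g067230 gained more after 4 dpi, at 6.19, 278 and 638 RPM. Solyc08g067940 and Solyc07g052180, without annotation here, also rose more before 4 dpi on the log2 scale, with medians of 3.88, 60.8 and 97.7 RPM and of 0.813, 44.6 and 67.0 RPM.

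Among genes whose later step was the more positive were some that fell mostly before 4 dpi. The peroxidase homolog Solyc05g052280 had medians of 51.3, 6.59 and 6.79 RPM at 2, 4 and 6 dpi, a later step higher by 2.70 ± 0.20 (adjusted p = 1.92e-13). The LSH3 homolog Solyc09g025280 stood at 38.2, 8.01 and 8.09 RPM, and the homolog of SAP, a regulator of flower and ovule development in Arabidopsis, at 70.0, 8.22 and 5.58 RPM (Solyc05g041220). Solyc09g090180, without annotation here, turned round, with 249 RPM in the SYM, 18.0 at 2 dpi, 6.35 at 4 dpi and 17.2 at 6 dpi. The later step of the CRC homolog Solyc05g012050 was higher by 8.00 ± 1.06 than the earlier one (adjusted p = 6.69e-07). SlWUS fell less in the later step than in the earlier one, with 26.7, 6.04 and 3.88 RPM at 2, 4 and 6 dpi (difference 1.14 ± 0.27; adjusted p = 0.0031). The ERF-family homolog Solyc03g117230 fell more in the later step, by 2.33 ± 0.30 (adjusted p = 5.14e-07).

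The genotypes were compared last. For 0 of 18336 genes (0%) did the change from 4 to 6 dpi differ between the genotypes in edgeR's test of the genotype by stage terms, with 149 at an unadjusted p under 0.05. DESeq2 gave 0, with 82 at an unadjusted p under 0.05, and edgeR with the pairs as a block gave 332 at that limit and none after adjustment. These unadjusted counts are all well under the share of 0.05 of the tested genes that such a limit passes when nothing differs. The test was thus conservative on these libraries, and its 0 says little. A p that misses the threshold does not show that the genotypes changed alike. Of the 2674 genes called over all genotypes, 2633 had the same sign in all 4. These genes were selected for a change over all genotypes in the same libraries, so that count does not show that the genotypes changed alike. The ERF-family homolog Solyc03g117230 came nearest to a difference, with an adjusted p of 1.00 in edgeR, also without the fas 6 dpi replicate 3. Its log2 fold change was -5.46 ± 0.41 in lc, -2.65 ± 0.37 in fas, -3.70 ± 0.33 in lc/fas and -4.78 ± 0.36 in the WT. SlCLV3 had changes of -1.42 ± 0.40 in lc, -0.36 ± 0.46 in fas, -1.32 ± 0.36 in lc/fas and -2.04 ± 0.42 in the WT. SlWUS had -0.87 ± 0.34, -0.54 ± 0.36, -1.04 ± 0.30 and -1.49 ± 0.34 in the same order. Neither gene passed the test of a difference. Their fas values include the fas 6 dpi replicate 3, in which each gene had 2 counts.

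Within a genotype, 3 libraries against 3, 203 genes (1.11%) were called in lc, 269 (1.47%) in fas, 317 (1.73%) in lc/fas and 334 (1.82%) in the WT. Most were higher at 6 dpi, 147 (0.802%) in lc, 198 (1.08%) in fas, 234 (1.28%) in lc/fas and 245 (1.34%) in the WT, and 56 (0.305%), 71 (0.387%), 83 (0.453%) and 89 (0.485%) were lower, in the same order of genotypes. With the pairs as a block these counts were 513, 629, 811 and 775. Differences between these counts were not tested, and they moved with single libraries. In lc the count was 121 and 125 without the 6 dpi replicates 1 and 2 and 86 and 107 without the 4 dpi replicates 1 and 2. In fas it was 143 and 171 without the 6 dpi replicates 1 and 2 and 125, 169 and 138 without the 4 dpi replicates 1, 2 and 3. Without the fas 6 dpi replicate 3 it lay within 125 to 368, the range over all fits that left out 1 library. In lc/fas it was 173 without the 6 dpi replicate 1 and 177, 194 and 172 without the 4 dpi replicates 1, 2 and 3. In the WT it was 821 and 166 without the 6 dpi replicates 2 and 3 and 153, 182 and 189 without the 4 dpi replicates 1, 2 and 3. The CRC homolog Solyc05g012050 was called in each genotype, with changes of 7.40 in lc, 7.94 in fas, 7.14 in lc/fas and 7.01 in the WT, and so were the MT2B, ACO4, AIL6 and CUC2 homologs, TAG1 and STM.

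**Figure D5:**
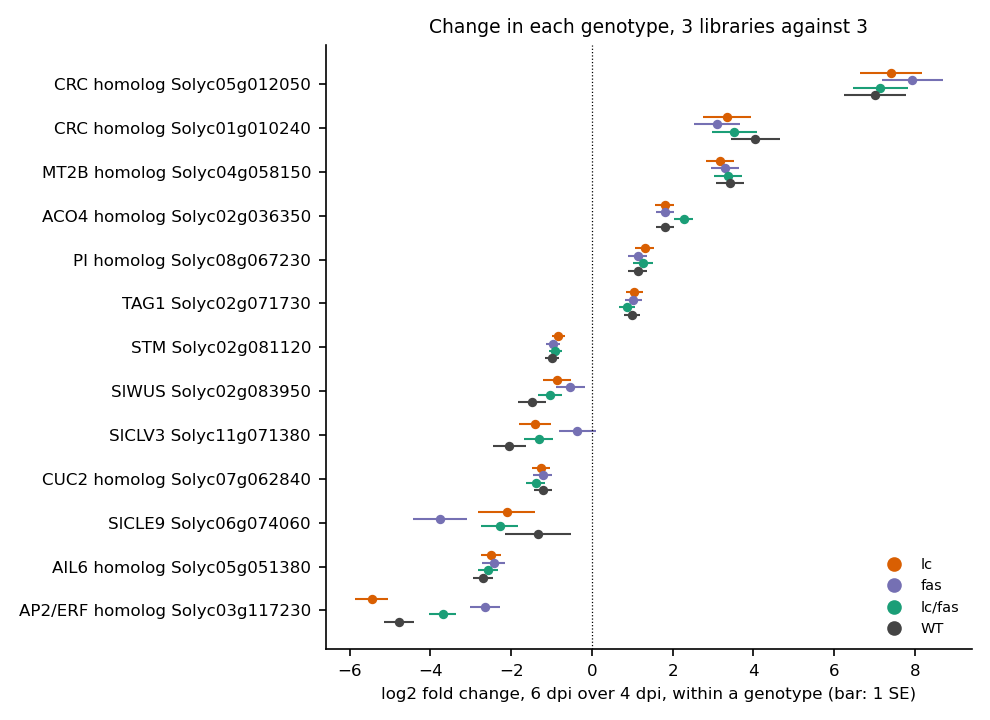
Log2 fold change, 6 dpi over 4 dpi, of 13 genes within each genotype, with bars of 1 SE (3 libraries against 3 in the 8-group edgeR fit). All 13 genes, which were called over all genotypes in the same libraries, have the same sign in the 4 genotypes. The widest spread is that of the AP2/ERF homolog, at -5.46 in lc, -2.65 in fas, -3.70 in lc/fas and -4.78 in the WT.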

How the data were processed

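The authors made 3′ tag libraries and deposited whole counts per gene, with no normalization, after trimming by fqtrim and alignment by Rsubread against the tomato genome and its ITAG annotation. How reads that fit several genes were counted is not given in the sources used here. There were 34725 genes. 1 line without a gene name, at most 3.01% of a library's total, was left out of totals and tests. RPM is counts per 1000000 named counts.

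The 24 libraries were fitted in edgeR 4.0.16 (R 4.3.3; filterByExpr, TMM, quasi-likelihood test, genotype and stage as terms, Benjamini-Hochberg adjustment over all tested genes, threshold 0.05). An 8-group fit gave the changes within a genotype and their difference, and a 36-library fit with 2 dpi gave the difference of the steps. DESeq2 1.42.0 and limma 3.58.1 gave alternatives. Scripts were tested on simulated counts. The other stages were used for levels and 1 alternative only. The study calls the 3 replicates of a group biological. It does not say that they came from separate plants, so p-values measure the spread between these pooled samples.

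Libraries of 1 genotype with the same replicate number were treated as pairs of 4 and 6 dpi. The labels do not say that a number marks 1 collection. The study collected tissue for each replicate, and deviations of same-numbered libraries from their group means correlated at 0.155 to 0.621 in 12 of 12 pairs over the 13178 genes with a mean log2 CPM over 3. Over all 18336 genes the range was 0.0891 to 0.442, with 11 of 12 over 0.1, so the pairing rests on the choice of genes. The same-numbered library of 4 dpi was the best match in 11 of 12 pairs over the 13178 genes. Over all 18336 genes it was the best match in 10 of 12. The block fit and the counts of pairs rest on this assumed pairing. The block fit is given beside the lists and named genes whose call it changes.

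Lists of genes were written from general knowledge of Arabidopsis and matched through the pairs of genes the study gives. Many lists were reached only in part. DNA replication had 3 genes for 21 loci, and carpel and ovule 4 for 18. Cell wall had 9 for 37, and cuticle and wax 21 for 37. The members and lists were chosen with earlier results of these data known. Genes named are, by rule, the 10 largest rises and 10 largest falls among called genes of at least 5 RPM on average, with a log2 fold change of at least 1 in size and 1 direction in at least 11 of 12 pairs, the same again among annotated genes, up to 4 members of each list with the smallest p, the genes the study names by identifier, up to 5 genes with the smallest p of the genotype by stage test, and up to 5 in each direction for the difference of the steps. Other list members and the genes of the closing section were named after their values were seen.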

Additional observations from a re-analysis of the deposited data

How the results depend on the processing

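Of the 157 genes traced, 114 were called, and none of these reversed direction in any alternative fit that tested it. The stricter filter kept 109 of the 114, so the rest were not tested in that fit. Of the 114, 109 were called without each library in turn, and all 114 with the replicate block, which also called 15 of the 43 others. Of the 114, 49 were not called for the change within the WT, 3 with no filter, 2 with limma-voom quality weights and 1 with all 60 libraries. Against 2674 changed genes, the replicate block gave 4027 (1745 lower), the first component of the residuals as a covariate, chosen after seeing the data, 5262 (2726 lower), and a threshold of 0.01 gave 1620 (1140 higher, 480 lower). In the fit with that covariate 2536 genes were higher, so the share of higher calls was smaller than in the fit without it. The change within the WT, already given above, was called for 334 genes (245 higher, 89 lower) and for 259 at 2-fold (206 higher, 53 lower). It came from the fit that held all genotypes, without the pairs as a block, so it is no separate fit of the WT libraries. At 2-fold the stricter filter gave 335 (267 higher), and no filter gave 142 lower. Within a genotype the replicate block gave 513 in lc, 629 in fas, 811 in lc/fas and 775 in the WT. For the difference of the steps it gave 1128 higher. Leaving out 1 library in turn gave 2363 to 2912 changed genes (1535 to 1796 higher, 828 to 1122 lower), 571 to 612 at 2-fold (473 to 505 higher, 95 to 114 lower), 86 to 230 in lc, 125 to 368 in fas, 172 to 397 in lc/fas, 153 to 821 in the WT, 0 genes that differed between genotypes each time, and 1677 to 2032 for the steps (547 to 728 higher, 1081 to 1330 lower). The causes were not tested. Genes under about 2 RPM rest on few counts, and at the depth of the fas 6 dpi replicate 3 their level in that library could not be told from 0.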

Other observations

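Among annotated genes that changed at least 2-fold, further transcription factors were found that no list held, and these were picked with their values known. The homolog of AP2, which in Arabidopsis acts in the outer floral whorls, had 9.46, 17.4 and 24.9 RPM at 6 dpi, against 2.45, 4.11 and 5.97 RPM at 4 dpi (Solyc02g064960; log2 fold change 2.15 ± 0.14; adjusted p = 1.41e-11), while the homolog of its relative RAP2.7 had 9.06, 14.3 and 20.3 RPM at 6 dpi, against 24.3, 35.3 and 39.4 RPM at 4 dpi (Solyc09g007260; -1.20 ± 0.11; adjusted p = 3.4e-09). The stages did not overlap for either gene. The AP2 homolog was also high in the SYM, with a median of 48.9 RPM, and near 0 in the F&IM (0.664 RPM) and at 2 dpi (0.565 RPM). The homologs of the homeodomain factors HB21 (Solyc02g062960) and BLH1 (Solyc01g007070), of MYB48 (Solyc11g073120) and of the MADS-box factor AGL15 (Solyc01g087990) rose by 1.87, 1.36, 1.95 and 1.00. A bHLH homolog (Solyc01g107490) fell by 1.39, and the homolog of the glutaredoxin ROXY2, which with TGA9 acts in Arabidopsis anthers, fell by 1.16 (Solyc08g036570; adjusted p = 2.94e-05).

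Some of the genes that rose at least 2-fold carry consecutive identifiers among the tested genes. Of the 559 genes called at 2-fold or more, 21 stood in 6 such runs of at least 3. All 6 were runs of rises, but 467 of the 559 genes were rises. Whether 6 runs are more than expected was not tested. The longest, of 5 genes, ran from Solyc02g070950 to Solyc02g071000, with log2 fold changes of at least 1.32. It lies between the identifiers of the LHCB1.3 homologs Solyc02g070940 and Solyc02g071010. A run of 4 from Solyc09g092720 to Solyc09g092760 had changes of 1.85, 2.65, 2.23 and 2.78, with medians of 43.3, 26.6, 70.0 and 14.3 RPM at 6 dpi and 9.94, 3.22, 15.2 and 1.89 RPM at 4 dpi. A run of 3 that starts with Solyc03g097590, the second largest rise among genes of at least 5 RPM on average, had changes of 4.17, 3.01 and 3.16. Near-identical copies can share reads, and whether these genes are such copies was not tested.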
